A study of Spinacia oleracea with 12 samples.

Results

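The 200 spinach genes described here were the most abundant genes that leaf and root had in common. For each of the 25495 genes in the deposited table, the mean FPKM over the 6 leaf libraries and the mean over the 6 root libraries were taken, the smaller of the pair was kept, and the 200 genes with the highest kept value were taken. The members were thus chosen by their measured FPKM. FPKM is a count of sequenced fragments divided by gene length and by library depth. A gene could therefore enter only by being high in both tissues, and its leaf and root levels are a description of the choice and were not tested. The rule averaged over N supply within each tissue, so the direction of a difference between high N and low N did not enter it. A gene near the edge could still pass through the N level where it was higher. With high N libraries alone 184 of the members were kept, and with low N libraries alone 187.

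Plants of *Spinacia oleracea* cultivar 'Banjo' were grown for 6 weeks in a Turface medium with N held at 200 ppm (the high N treatment) or at 50 ppm (the low N treatment). In both treatments N came as Ca(NO3)2, with CaCl2 added to equalise calcium and the other nutrients supplied from an N-free Hoagland solution. Bulk RNA from leaf and from root of 3 independent plants per treatment was sequenced, giving 4 groups of 3 libraries (high N leaf, low N leaf, high N root and low N root). Groups were read from the sample titles, which other label fields contradict on tissue or treatment for root and low N libraries. The marker genes given below check the tissue only. Nothing in the labels ties a leaf library to a root library of the same plant. The work covers 1 cultivar at 1 age and 2 levels of N.

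Leaf and root of a young plant do different work. Leaf cells devote much of their mRNA to photosynthesis, and root cells to the uptake of water and ions, but both need protein synthesis and turnover, chromatin, membrane energisation, calcium signalling and stress protection. N supply reaches both tissues, because nitrate taken up by the root is either assimilated there or carried to the leaf, and nitrate and its products change transcription in both.

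Each library held 15627994 to 18608172 fragments on genes. The tissue labels were checked against 8 leaf markers, among them chlorophyll a-b binding proteins and photosystem I subunits, whose summed level was 15455 to 22529 FPKM in the leaf libraries and 114 to 214 FPKM in the root libraries, with no overlap for 7 of the 8. Of 4 root markers, 3 did not overlap, and their summed level was 2.33 to 12.7 FPKM in leaf and 64.3 to 593 FPKM in root. Carbonic anhydrase was the leaf marker that overlapped, and the nitrate transporter NRT2.5 was at 0 in leaf and at most 1.32 FPKM in root. None of these 12 markers was among the 200 genes.

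The smaller tissue mean of the members ran from 204 to 2522 FPKM, with a median of 310.2 FPKM. Gene names came only from the Swiss-Prot hits that the study gives in its lists of N-responsive genes. By those, 21 of the 200 members had a name, 6 were listed without a hit, and 173 were in none of the lists. The files do not pair the other identifiers with names, so the 3 highest members can be given only by identifier. The first, Spo25931, averaged 7191 FPKM in leaf and 2522 FPKM in root. Spo02904 averaged 10595 FPKM in leaf and 2064 FPKM in root, and Spo25352 had the opposite balance, with 2017 FPKM in leaf and 6256 FPKM in root. At the lower edge, the smaller mean of the last 3 members (Spo17653, Spo16080 and Spo04234) was 205, 204.1 and 204.0 FPKM, and that of the first 3 genes left out (Spo12304, Spo24275 and Spo15132) was 203.9, 203.8 and 202 FPKM, so the edge separated genes that hardly differed.

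**Figure D1:**
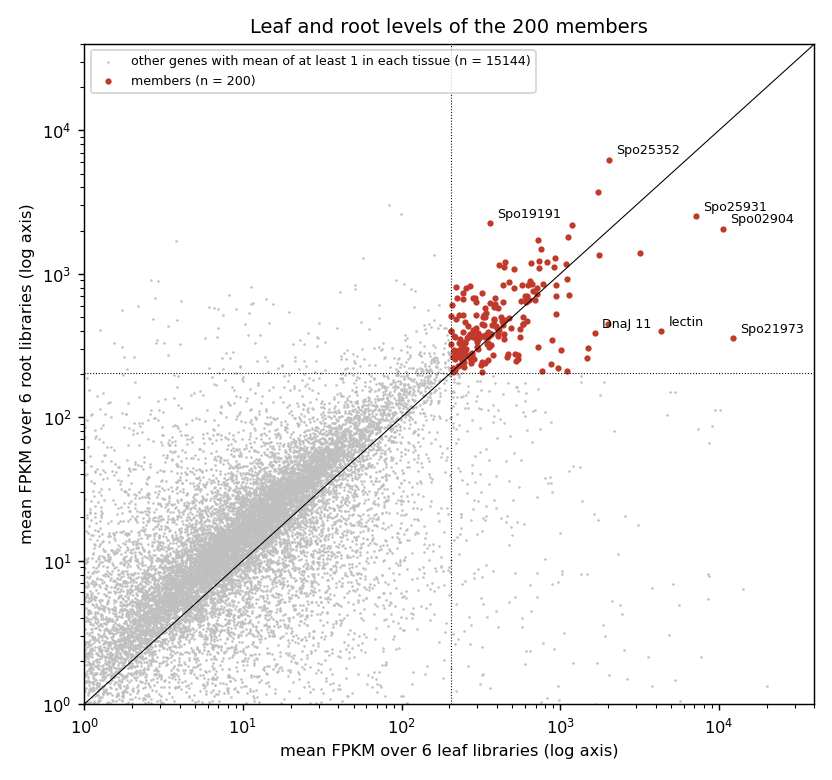
Mean FPKM over the 6 leaf libraries (x axis) against the mean over the 6 root libraries (y axis), both on log axes, for the 200 members (red) and 15144 other genes with a mean of at least 1 FPKM in each tissue (grey). The dotted lines mark 204 FPKM, the smaller mean of the last member, and 135 members lie above the diagonal of equal levels as deposited, but 52 after median-of-ratios scaling.

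Being high in both tissues did not mean being equally high. Of the 200 members, 158 (79.0%) had leaf and root means within 2-fold of each other, against 62.2% of all genes with at least 1 FPKM in each tissue. In these bulk samples, fewer cells of a type and less RNA per cell cannot be told apart. A further 23 members were over 2-fold higher in root and 19 over 2-fold higher in leaf. Past 4-fold the balance turned to the leaf, with 9 members higher in leaf and 1 higher in root, and both members past 10-fold were higher in leaf. Root means were above leaf means for 135 members as deposited, but for 52 after median-of-ratios scaling of the libraries. That scaling moved the median log2 ratio of root to leaf from 0.20 to -0.36 in the members and from 0.53 to -0.02 in all genes with at least 1 FPKM in each tissue. The members were chosen on these means, so these counts and ratios are a description. Only 45 members were among the 200 most abundant genes of leaf and of root alike, 15 were in the leaf list alone, 63 in the root list alone, and 77 in neither.

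The members with the most unequal levels were led by a pair of 510-base genes. Spo21973, which has no name, averaged 12185 FPKM in leaf and 357 FPKM in root, a ratio of 34.1. Its leaf libraries reached 19948 FPKM, the highest value of any member in any library. Spo21985, named as a mannose/glucose-specific lectin, a class of sugar-binding proteins that plants often store in quantity, averaged 4342 FPKM in leaf and 397 FPKM in root, a ratio of 10.95. Chaperone protein dnaJ 11 (Spo08372), a J-domain partner of HSP70 chaperones named for the chloroplast, averaged 1651 FPKM in leaf and 387 FPKM in root. In the other direction, Spo19191 averaged 358 FPKM in leaf and 2253 FPKM in root, 6.29 times as much, and Spo00073 averaged 221 and 809.7 FPKM. RALF-like 33 (Spo06335), a secreted peptide of a family that raises the pH of the cell wall space in Arabidopsis, averaged 245 FPKM in leaf and 739 FPKM in root.

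Most named members stood closer to balance. BTB/POZ and TAZ domain-containing protein 2 (BT2, Spo08783), a scaffold protein that responds to nitrate in Arabidopsis, averaged 247 FPKM in leaf and 243 FPKM in root. CBSX3 (Spo02797), a CBS domain protein of mitochondria, averaged 346 and 323 FPKM. Cysteine synthase (Spo23527), which builds cysteine from O-acetylserine and sulfide, averaged 245 and 269 FPKM. The leaf and root libraries of all 3 overlapped. Root levels were above leaf levels, by FPKM as deposited, for HMG1/2-like protein (Spo18386), a DNA-bending chromatin protein, at 731 FPKM in leaf and 1236 FPKM in root, for linker histone H1 (Spo18046) at 243 and 665 FPKM, and for glycine-rich RNA-binding protein 7 (Spo26850) at 290.0 and 679 FPKM, whereas zinc finger CCCH domain-containing protein 49 (Spo14418, 445 and 351 FPKM) was higher in leaf. The vacuolar pyrophosphate-driven proton pump (Spo17898), which moves protons into the vacuole, averaged 375 FPKM in leaf and 271 FPKM in root.

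Functional groups could not be counted in full, because names exist only for genes the study listed as N-responsive. Among the 1754 annotated genes of the table, none of 10 translation genes, 29 ubiquitin genes, 4 cytoskeleton genes, 4 aquaporins, 23 nitrogen genes, 44 redox genes, 27 auxin-binding or germin-like genes and 25 carbon metabolism genes was a member. Among 23 protein folding genes 1 was a member, dnaJ 11, which was also the single member of 126 chloroplast genes. The 14-3-3-like protein (Spo23832) was the single member of 4 signalling genes.

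The members were short genes. Their median length, worked back from the ratio of fragments to FPKM, was 1064.5 bases (range 210 to 3554), against 1510 bases for all 18411 genes with a mean of at least 1 FPKM, and 46.0% were under 1000 bases against 29.1%. Length enters FPKM as a divisor, and when genes were ranked by fragments scaled to depth alone in place of FPKM, 123 of the 200 members were kept. The choice was less sensitive to the libraries, with 193 to 199 members kept when each library was left out in turn, 184 when only high N libraries were used and 187 when only low N libraries were used.

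Together the members held about the same share of the summed FPKM in every group, and the high N and low N libraries overlapped in both tissues. Their share was 15.1 ± 1.46% in high N leaf and 15.05 ± 1.001% in low N leaf (SD, n = 3), a difference of 0.0916 percentage points (exact permutation test, two-sided p = 1). In root it was 16.1 ± 0.513% under high N and 16.8 ± 1.11% under low N, a difference of -0.693 percentage points (exact permutation test, two-sided p = 0.5), and 3 libraries against 3 cannot give a p below 0.1. Every member was well covered, since the lowest count in any library was 295 fragments, a counting error of 5.82%, and 189 members were at 100 FPKM or more in every library.

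The median member had an SD of 0.35 on the log2(FPKM + 1) scale over the 12 libraries, against 0.57 for all genes with a mean of at least 1 FPKM. The SD over the 12 libraries includes the difference between leaf and root, which the choice of members limits, so it is a description. Within groups the gap was smaller, 0.25 against 0.28. A pair of unnamed genes of balanced level were the steadiest. Spo02969 ranged from 200.5 to 250.4 FPKM in leaf and from 205 to 258 FPKM in root, and Spo14871 from 239 to 292 FPKM and from 241 to 288 FPKM. At the other end, proline dehydrogenase 2 (ProDH2, Spo24050), the mitochondrial enzyme that begins proline breakdown, had the highest SD within groups, 1.16, while over the 12 libraries Spo21973 (2.82) and the lectin (1.95) had the highest SD. Spo10691, with 1466 FPKM in leaf and 259 FPKM in root, had the next highest of the unnamed members. The low N leaf libraries of ProDH2 were at 739, 96.6 and 44.2 FPKM.

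**Figure D2:**
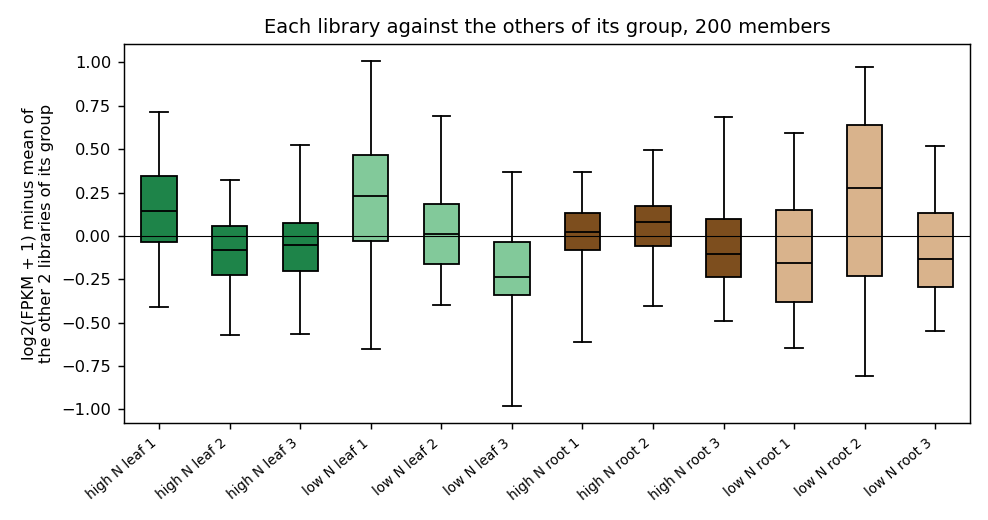
For each library, log2(FPKM + 1) of the 200 members minus the mean of the other 2 libraries of its group. Boxes span the quartiles, the line is the median and whiskers run from the 5th to the 95th percentile of members. Low N root 2 has a median of 0.27, low N leaf 1 of 0.23 and low N leaf 3 of -0.24.

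The median coefficient of variation of the members was lower under high N (11.6% in leaf and 10.2% in root) than under low N (15.99% in leaf and 22.7% in root). Low N root 2 stood farthest from its group, with a median member level 0.27 log2 units above the other 2 libraries, 8 members over 2-fold higher and 10 over 2-fold lower. Members under 1000 bases were shifted by 0.33 and longer members by 0.14, while the median over all genes was -0.04. Low N leaf 1 was shifted by 0.23 and low N leaf 3 by -0.24.

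In leaf, the members with p below 0.05 included TSJT1, BT2 and an F-box/kelch-repeat gene, which were higher under high N, and RALF-like 33 and petal death protein, which were lower. With limma on log2(FPKM + 1), 32 members (16%) had p below 0.05, the unadjusted threshold the study also used, against 11.2% of all 16522 genes tested. Of these, 17 (8.5% of the members) were higher under high N and 15 (7.5%) were lower, against 4.72% and 6.48% of all genes. The libraries of the 2 groups did not overlap for 43 members (21.5%), against 17.8% of all genes. No member and no gene passed after Benjamini-Hochberg adjustment over all genes (1850 genes had unadjusted p below 0.05), and with voom on recovered fragments 3 genes passed, none of them a member. Without low N leaf 1, however, 6 members (3.0%) passed by limma, against 0.25% of all genes tested. Without low N leaf 2 the count of members with p below 0.05 was 19, and with median-of-ratios scaling it was 23, of which 17 were higher and 6 lower.

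A member with unadjusted p below 0.05 by limma is called below, and every difference given for a tissue was called there unless stated otherwise. The names of these genes come from lists that the study drew from the same libraries for their N response, so a call in a named gene is not independent evidence. Of the 21 named members, 14 were called higher and 2 lower in leaf, and 10 higher and 2 lower in root. Over all 16522 genes tested in leaf, 1850 were called, 828 of them among the 14853 genes in none of the lists. In root 1993 of 17881 genes were called, 787 of them among the 15943 in none. Most calls over all genes were thus in listed genes too, so the counts for named members are not read as particular to the members. Of the 173 members in none of the study's lists, 11 were called in leaf (6.36%), 10 of them lower under high N, and 4 in root (2.31%), all lower. Over all genes tested that are in none of the lists, 5.57% were called in leaf (3.53% lower) and 4.94% in root (3.56% lower), and leaving out listed genes removes calls by construction.

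The stem-specific protein TSJT1 (Spo14130), named after a tobacco transcript first found in stems, had the largest difference of the named members whose leaf calls held with each library left out. Its leaf libraries were at 1627, 1521 and 1455 FPKM under high N and at 434, 397 and 228 FPKM under low N. Each high N library was thus over 3 times the highest low N library, a log2 difference of 2.17 (SE 0.27; limma adjusted p = 0.108). In root it was at 849, 1289 and 362 FPKM under high N and 256, 102 and 281 FPKM under low N. The groups did not overlap there either, although high N root 3 came close to the low N libraries, and the log2 difference was 1.91 (SE 0.56; limma adjusted p = 0.364).

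F-box/kelch-repeat proteins choose targets for SCF ubiquitin ligases, and 2 of them were members with unlike behaviour. Spo05993, named after At1g67480, was at 717, 557 and 562 FPKM in high N leaf and at 291, 166 and 178 FPKM in low N leaf, a log2 difference of 1.56 (SE 0.25; limma adjusted p = 0.152). In root its levels were higher but less even, at 2098, 2557 and 713 FPKM under high N and 863, 348 and 374 FPKM under low N. High N root 3 lay below low N root 1, so the root groups overlapped, and the log2 difference of 1.70 (SE 0.57; limma adjusted p = 0.404) lost its call when high N root 1 or 2 or low N root 2 or 3 was left out, with values of 1.34 to 2.26 over the 6 fits that each left out a library. Spo24616, named after At1g80440, was the single named member called in neither tissue, with log2 differences of 0.15 (SE 0.20) in leaf and 0.64 (SE 0.31) in root and limma adjusted p of 0.828 and 0.492. The unnamed Spo05994, a 255-base gene, was at 379, 297 and 297 FPKM in high N leaf and at 123, 69.8 and 77.4 FPKM in low N leaf, a log2 difference of 1.87 (SE 0.24; limma adjusted p = 0.108). Its low N leaf libraries were all below the rule's edge of 204 FPKM, so it entered the members through its high N leaf libraries. It was at 1152, 1298 and 398 FPKM in high N root and at 413, 163 and 198 FPKM in low N root, where the groups overlapped and the log2 difference was 1.82 (SE 0.54; limma adjusted p = 0.367).

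BT2, which in Arabidopsis restrains nitrate uptake genes, was at 362, 468 and 309 FPKM in high N leaf and at 130.2, 146 and 69.4 FPKM in low N leaf. The leaf groups were far apart, with a log2 difference of 1.76 (SE 0.31; limma adjusted p = 0.16). Its root libraries were spread over a wide range, at 674, 385 and 95.4 FPKM under high N and 169.8, 97.3 and 37.6 FPKM under low N. The root difference had the same size, 1.76, but an SE of 0.81 and was not called (limma adjusted p = 0.473). None of its low N libraries, in leaf or in root, reached the rule's edge of 204 FPKM, so BT2 entered the members through high N libraries.

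The late embryogenesis abundant protein Spo22411 belongs to a family that protects drying cells. It was at 1284, 1338 and 1269.8 FPKM in high N leaf, close together, and at 903, 437 and 368 FPKM in low N leaf. The log2 difference was 1.30 (SE 0.33; limma adjusted p = 0.273) in leaf and 0.90 (SE 0.24; limma adjusted p = 0.355) in root. The co-chaperone dnaJ 11 was at 2718, 1713 and 2221 FPKM in high N leaf and at 1062, 1263 and 931 FPKM in low N leaf. In root, where it was lower, it was at 516, 569.8 and 446 FPKM under high N and at 314, 175 and 299 FPKM under low N. Neither tissue showed overlap, and the log2 differences were alike, 1.02 (SE 0.24) in leaf and 0.99 (SE 0.26) in root, with limma adjusted p of 0.239 and 0.351. Stress-associated protein 5 (SAP5, Spo15643), a zinc finger protein with A20 and AN1 domains, had a log2 difference of 0.69 (SE 0.20; limma adjusted p = 0.325) in leaf.

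Among the members that act on DNA or RNA, the zinc finger CCCH domain-containing protein 49 (Spo14418) belongs to a class that binds RNA. It was at 598, 546 and 573 FPKM in high N leaf and at 312, 334 and 307 FPKM in low N leaf, a log2 difference of 0.85 (SE 0.15; limma adjusted p = 0.168). HMG1/2-like protein was at 920.1, 888 and 988 FPKM in high N leaf and at 682, 469 and 438 FPKM in low N leaf, a log2 difference of 0.84 (SE 0.22; limma adjusted p = 0.273). Histone H1 had a leaf log2 difference of 0.75 (SE 0.23; limma adjusted p = 0.325), and glycine-rich RNA-binding protein 7 was not called in leaf (log2 difference 0.69, SE 0.32; limma adjusted p = 0.479).

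Signalling and wall-related members followed. The 14-3-3-like protein, of a family whose binding inactivates phosphorylated nitrate reductase in spinach leaves, was at 372, 325 and 317 FPKM in high N leaf and at 228, 205 and 131 FPKM in low N leaf. Its groups did not overlap, and the log2 difference was 0.88 (SE 0.23; limma adjusted p = 0.287). EXORDIUM-like 2 (Spo06643), of a family of cell wall proteins, was at 804, 267 and 379 FPKM under high N and at 219.8, 138 and 94.3 FPKM under low N, a log2 difference of 1.60 (SE 0.45; limma adjusted p = 0.308). CIPK6 (Spo06490), a kinase activated by calcineurin B-like calcium sensors, had a log2 difference of 1.54 (SE 0.54; limma adjusted p = 0.37), which was 1.02 without low N leaf 3 and lost its call there and without high N leaf 1 (1.42) or low N leaf 2 (1.40).

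Low N leaf 1 stood apart for ProDH2. The high N leaf libraries were at 852, 551 and 769.7 FPKM, and the low N libraries, at 739, 96.6 and 44.2 FPKM, overlapped them through low N leaf 1 alone. The log2 difference of 2.27 (SE 0.91; limma adjusted p = 0.424) was 3.43 without low N leaf 1 and 1.41 without low N leaf 3, and it lost its call when any library other than low N leaf 1 was left out.

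The members lower under high N included 2 with names. Petal death protein (Spo21626), named after a carnation protein of ageing petals, was at 183, 184 and 66.6 FPKM in high N leaf and at 341, 473 and 247 FPKM in low N leaf. Its high N leaf libraries were all below the rule's edge of 204 FPKM, so it entered the members through its low N leaf libraries. The log2 difference was -1.37 (SE 0.43; limma adjusted p = 0.33), or -0.89 without high N leaf 3, and was not called without low N leaf 2 (-1.14). In root it was at 223, 266 and 438 FPKM under high N and at 561, 682 and 618 FPKM under low N, with no overlap and a log2 difference of -1.06 (SE 0.27; limma adjusted p = 0.348). RALF-like 33 was at 228, 160.0 and 190.4 FPKM in high N leaf and at 297, 311 and 285 FPKM in low N leaf, a log2 difference of -0.64 (SE 0.18; limma adjusted p = 0.306). Its root levels were 504, 467 and 631 FPKM under high N and 1075, 1058 and 699 FPKM under low N. Low N was higher in both tissues without overlap, by a root log2 difference of -0.80 (SE 0.25; limma adjusted p = 0.379) that lost its call without high N root 1 or 2 (-1.01 to -0.70 with single libraries left out). Of the unnamed members with p below 0.05 and no overlap in leaf, Spo12163 had the most negative log2 difference, -1.11 (SE 0.33; limma adjusted p = 0.325). In the other direction Spo23126, at 1001, 771 and 658 FPKM in high N leaf and 424, 547 and 269 FPKM in low N leaf, had a log2 difference of 1.01 (SE 0.30; limma adjusted p = 0.323).

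In root, the call rate of the members was not above that of all genes. With limma, 18 members (9.0%) had p below 0.05, against 11.1% of 17881 genes tested. Of these, 11 (5.5% of the members) were higher under high N and 7 (3.5%) lower, against 4.63% and 6.52% of all genes. The groups did not overlap for 27 members (13.5%), against 15.6% of all genes. No member passed after adjustment, by limma or by voom on recovered fragments, and 0.028% of all genes did by limma. The count of 18 was 9 without high N root 1 and 7 without high N root 2. Under quantile normalization it was 23, of which 9 were higher and 14 lower.

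The root calls included cysteine synthase and the vacuolar proton pump, which were not called in leaf. Their interaction p by limma was 0.459 and 0.0629, so a difference between the tissues is not shown. Cysteine synthase had an uncalled leaf log2 difference of 0.36 (SE 0.24; limma adjusted p = 0.649). Cysteine synthase was at 336, 351 and 284 FPKM in high N root and at 229, 188 and 229 FPKM in low N root, a log2 difference of 0.59 (SE 0.17; limma adjusted p = 0.362) that was kept with each library left out. The vacuolar proton pump was at 318, 469.8 and 248 FPKM under high N and at 213, 194 and 181 FPKM under low N, a log2 difference of 0.76 (SE 0.25; limma adjusted p = 0.391). Its leaf libraries overlapped, with an uncalled log2 difference of 0.02 (SE 0.24; limma adjusted p = 0.983). The pump's root call was lost without high N root 2 or low N root 3 (0.52 to 0.98 with single libraries left out). Glycine-rich RNA-binding protein 7 was at 823, 836 and 726 FPKM in high N root and at 571, 510.3 and 604 FPKM in low N root, a log2 difference of 0.50 (SE 0.18; limma adjusted p = 0.416) that lost its call without high N root 1 or 2 or low N root 1 (0.43 to 0.56). The lectin had a root log2 difference of 1.01 (SE 0.42; limma adjusted p = 0.446), which was 0.56 without low N root 2 and kept its call only without low N root 1. Among unnamed genes, Spo15479 was lower under high N in root by a log2 difference of -1.08 (SE 0.42; limma adjusted p = 0.424) and Spo21625 by -0.81 (SE 0.33; limma adjusted p = 0.431). Both rested on low N root 2, without which the differences were -0.62 and -0.45 and not called, and both kept their call only when low N root 1 was the library left out. Spo00257, at 211, 189 and 225 FPKM in high N root and 242, 337 and 331 FPKM in low N root, had a root log2 difference of -0.52 (SE 0.19; limma adjusted p = 0.413), lost without high N root 1 or 2 or low N root 2 or 3 (-0.68 to -0.44).

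**Figure D3:**
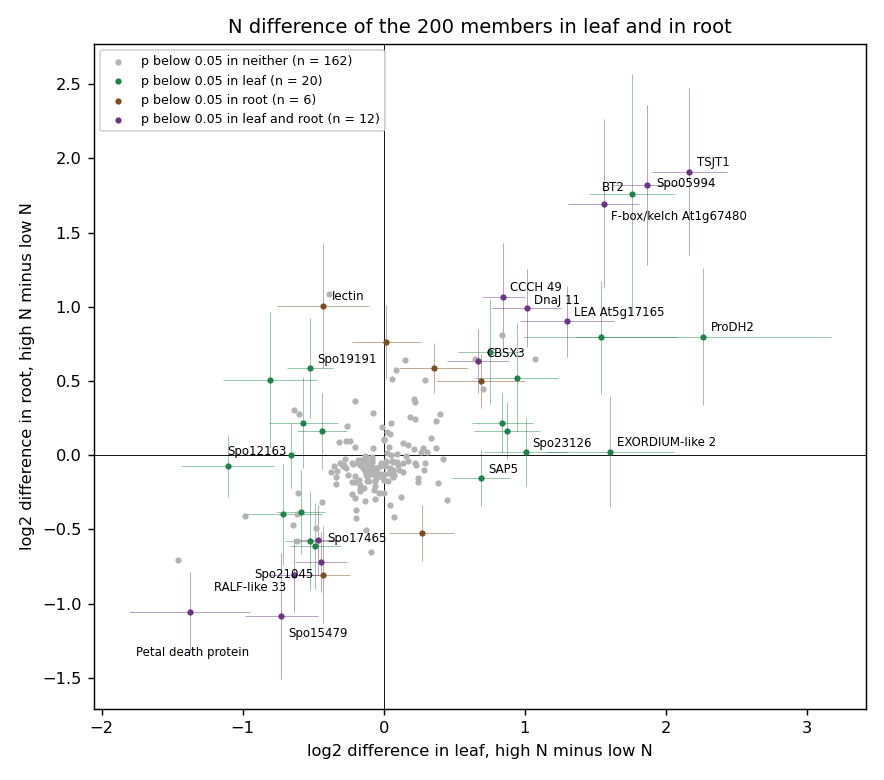
Log2 difference of each of the 200 members, high N minus low N, in leaf (x axis) and in root (y axis), from limma on log2(FPKM + 1). Colours give the tissues with unadjusted p below 0.05 and bars are standard errors of the called members; the 12 members called in both tissues lie in the upper right (7) and the lower left (5), with TSJT1 at 2.17 in leaf and 1.91 in root.

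Leaf and root comparisons shared no library, but deviations of same-numbered leaf and root libraries from their group means had correlations of 0.268, 0.105 and 0.301 under low N and of 0.132, 0.37 and 0.0863 under high N, and the labels do not say whether a number marks the same plants. Of the 32 members called in leaf and the 18 called in root, 12 were called in both, which is 37.5% of the leaf calls and 66.7% of the root calls. That is 6.0% of the members, against 2.45% of the 15344 genes tested in both tissues, where the shared calls made up 22.7% of the leaf calls and 25.4% of the root calls. All 12 went the same way in both tissues, 7 higher and 5 lower under high N, as did 88.6% of all genes called in both. Called or not, 72.5% of the members and 64.4% of all genes had the same sign in both tissues. The 7 were TSJT1, the F-box/kelch gene Spo05993, its neighbour in identifier Spo05994, the late embryogenesis abundant protein, dnaJ 11, the CCCH protein and CBSX3, and the 5 were petal death protein, RALF-like 33, Spo15479, Spo21045 and Spo17465. Among these 12, Spo05994, petal death protein, RALF-like 33 and Spo17465 had a leaf group mean below the rule's edge of 204 FPKM. Spo17465 also had such a mean in root. They entered through the N level where they were higher, so the share of members called in both tissues is not independent of the choice. CBSX3 had log2 differences of 0.67 (SE 0.22) in leaf and 0.63 (SE 0.22) in root. Its calls were lost without low N leaf 2 or 3 (0.48 to 0.81 in leaf with single libraries left out) and without high N root 1 or 2 or low N root 1 or 2 (0.50 to 0.78 in root). The CCCH protein was at 557, 591 and 285 FPKM in high N root and at 273, 149 and 248 FPKM in low N root, a log2 difference of 1.07 (SE 0.36; limma adjusted p = 0.404) that lost its call without high N root 1 or 2 or low N root 2 (0.80 to 1.40 with single libraries left out). Spo15479 had a leaf log2 difference of -0.72 (SE 0.26; limma adjusted p = 0.375), or -0.44 without low N leaf 1, and lost its call without high N leaf 1 (-0.67) or 3 (-0.71).

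**Figure D4:**
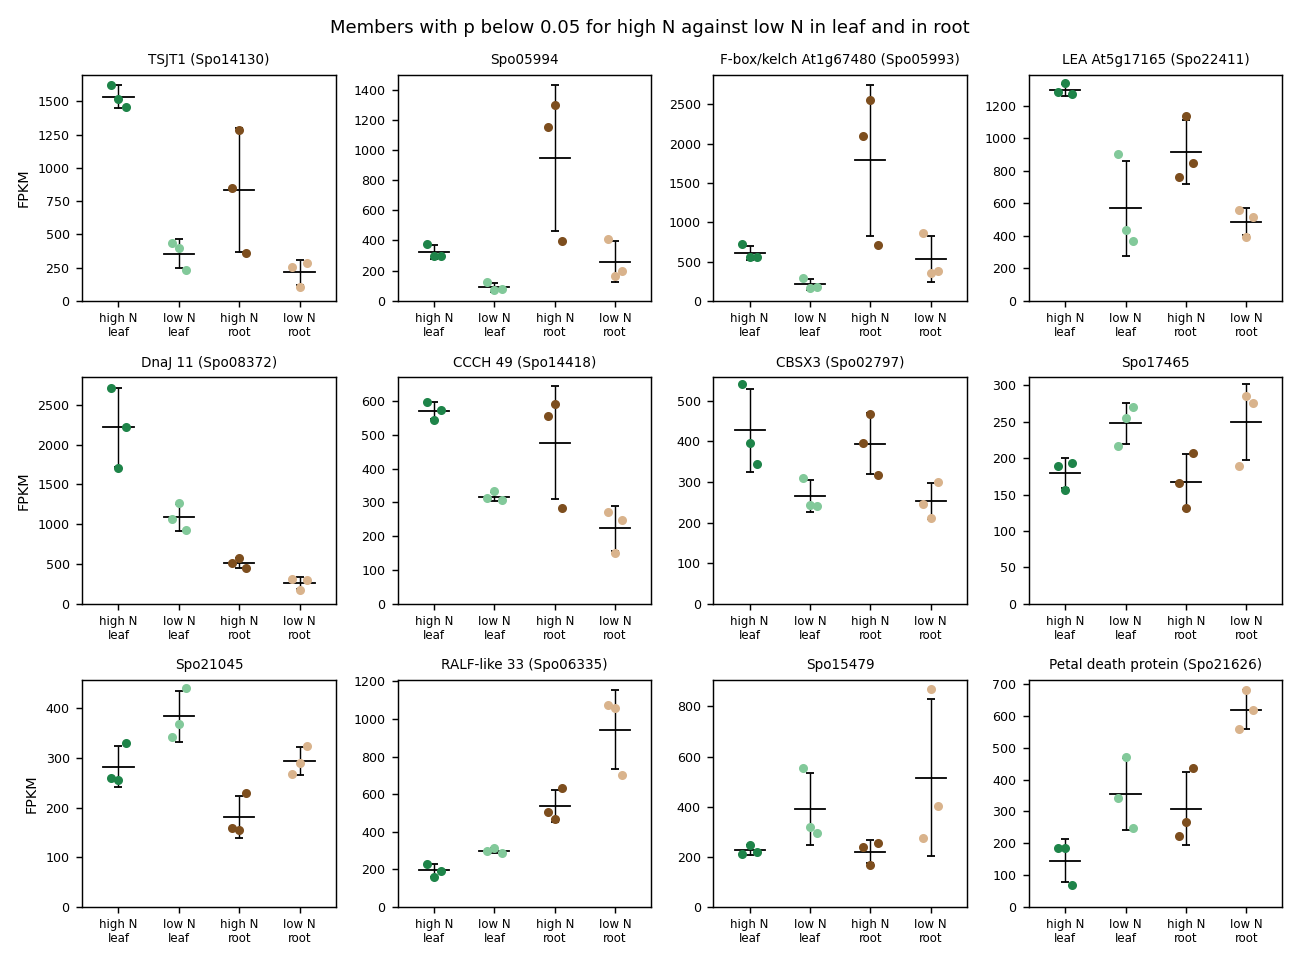
FPKM in every library of the 12 members with p below 0.05 for high N against low N in leaf and in root. Points are libraries, lines are group means and bars are SD of 3 libraries; axes start at 0, and TSJT1 fell from 1534 FPKM in high N leaf to 353 FPKM in low N leaf, while petal death protein was at 309 FPKM in high N root and 620.3 FPKM in low N root.

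With all 12 libraries in 1 limma fit and tissue as a term, 36 members (18%) had p below 0.05 for N, against 16.5% of 18411 genes. Of the 36, 23 (11.5% of the members) were higher and 13 (6.5%) lower, against 6.24% and 10.3% of all genes. The fit had no term for plant and took leaf and root libraries as independent. If leaf and root came from the same plants, its p-values may be too small. After adjustment 3 members passed (1.5%), against 0.38% of all genes. All 3 were higher under high N, TSJT1 by a log2 difference of 2.04 (SE 0.32), Spo05994 by 1.85 (SE 0.31) and dnaJ 11 by 1.01 (SE 0.17), each with an adjusted p of 0.0403. Spo05994 had entered the members through its high N leaf libraries. The count of 3 depended on single libraries, as it was 0 when any high N leaf library, high N root 1 or 2, low N leaf 2 or 3, or low N root 2 or 3 was left out, and 11 (5.5%) without high N root 3, against 1.51% of all genes. Under quantile normalization no member passed after adjustment, and the 39 members with p below 0.05 were split 16 higher and 23 lower. Across all 200 members the median log2 difference was -0.06 in leaf and -0.07 in root, against -0.04 and -0.05 for all genes tested. The root median was 0.07 without low N root 2.

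Whether the N difference itself differed between tissues was tested with the interaction term, N difference in root minus that in leaf. By limma 14 members (7.0%) had p below 0.05, against 6.75% of 18411 genes. Of the 14, 5 (2.5% of the members) were positive and 9 (4.5%) negative, against 3.56% and 3.19% of all genes. None passed after adjustment (0.163% of all genes did, and voom gave no member). The members' rate was thus near that of all genes. The count was 5 to 17 with single libraries left out, 7 after median-of-ratios scaling and 9 after quantile normalization. The split turned with single libraries, to 9 positive and 2 negative without low N leaf 3 and to 4 and 2 without high N leaf 1, and was 1 and 8 after quantile normalization.

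The smallest interaction p belonged to Spo19191, the member most tilted to root. It was at 319, 279 and 283 FPKM in high N leaf and at 475, 404 and 389.8 FPKM in low N leaf, lower under high N, and at 2000.3, 2626 and 3505 FPKM in high N root and 2085, 1314 and 1988 FPKM in low N root, where the groups overlapped. The interaction was 1.11 (SE 0.34; limma adjusted p = 0.47). SAP5 had an interaction of -0.84 (SE 0.27; limma adjusted p = 0.494). Its leaf libraries were at 506, 414 and 350.2 FPKM under high N and at 281, 285 and 218 FPKM under low N, whereas its root libraries were at 579.6, 492 and 451 FPKM and at 611, 495 and 585 FPKM. These 2 interactions kept p below 0.05 with each of the 12 libraries left out.

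Other interactions with p below 0.05 were lost with single libraries. EXORDIUM-like 2 had one of -1.58 (SE 0.64; limma adjusted p = 0.677), and its root libraries, at 141, 227 and 331 FPKM under high N and 162, 195 and 321 FPKM under low N, overlapped. HMG1/2-like protein (-0.62, SE 0.26; limma adjusted p = 0.701) and the 14-3-3-like protein (-0.71, SE 0.30; limma adjusted p = 0.709) also had smaller differences in root. The lectin (1.44, SE 0.56; limma adjusted p = 0.647) had opposite signs in leaf and root, but its leaf difference was not called (-0.43, SE 0.33; limma adjusted p = 0.686). The interaction call was lost in 5 of the 12 fits that left out a library for EXORDIUM-like 2 (values -1.93 to -1.13), in 9 for HMG1/2-like protein (-0.82 to -0.50), in 6 for the 14-3-3-like protein (-0.87 to -0.47) and in 4 for the lectin (0.99 to 1.87).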

How the data were processed

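The authors deposited 1 table of FPKM values per gene and library, computed from paired-end reads on the SpinachBase gene models. The series' own text names TopHat 2.0.12, Bowtie 2.2.3 and HTSeq 0.6.1, while the submitters' processing notes name fastp, HISAT2 2.1.0, featureCounts and DESeq2, and which of these made the table is not settled. Libraries came from total RNA, and strand was not stated for the counting, so overlapping genes may share fragments. Whole fragments and gene lengths were worked back from the FPKM values for 23015 genes (2480 were at 0 everywhere), including 200 of 200 members.

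High N was compared with low N by limma 3.58.1 (R 4.3.3) on log2(FPKM + 1) of genes with a mean of at least 1 FPKM in the libraries compared, with a variance trend and Benjamini-Hochberg adjustment over all genes tested. A fold change on that scale understates the change of low genes. In simulated data for the root comparison, 181 of 200 genes changed 4-fold, among 17857 genes, had an adjusted p below 0.05, as did 12 unchanged genes. The simulation gave every gene the same dispersion and had no shifts between libraries, unlike the real data. It therefore does not show how many such changes the real comparison would find. Shares were compared by exact permutation tests. Alternatives were another pseudocount (0.1), other filters and scalings, voom on fragments, a replicate block and leaving out each library. All named members were given, with the unnamed ones chosen by rank, edge, N difference, interaction p, spread and tissue ratio. The members and lists were chosen with earlier results of these data known.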

Additional observations from a re-analysis of the deposited data

How the results depend on the processing

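The number of members with p below 0.05 was 32 in leaf (19 to 35 with single libraries left out), 18 in root (7 to 24), 36 over both tissues (28 to 39) and 14 for the interaction (5 to 17). It was 17 over both tissues with no term for tissue, and 7 (median-of-ratios scaling) and 9 (quantile normalization) for the interaction. After adjustment the count was 0 to 6 in leaf, 0 in root and for the interaction, and 0 to 11 over both tissues with single libraries left out. The 3 members over both tissues (1.5%, against 0.38% of all genes) became 6 (3%, against 0.636%) with a mean of at least 5 FPKM. The count was 8 (4%, against 1.17%) with voom and 6 (3%, against 0.456%) with the replicate block. It was 0 with no filter (0% of all genes), with quantile normalization (0.0109%) and with no term for tissue (0%). The cause was not tested. With the replicate block the counts at p below 0.05 were 36 in leaf, 16 in root, 36 over both tissues and 14 for the interaction. Libraries of the 2 treatments with the same number did not all deviate together (correlations of -0.0116, 0.0794 and 0.273 in leaf and of 0.0972, -0.0228 and 0.0961 in root). With 3 libraries per group these correlations cannot show whether such libraries share more than a number. Ranking by depth-scaled fragments kept 123 members, and leaving out single libraries 193 to 199. The high N minus low N share ran from -0.681 to 0.767 percentage points in leaf and from -1.19 to -0.0937 in root, and the median SD of the members from 0.328 to 0.369. Of the 68 log2 differences with p below 0.05 in the members given by name or identifier, none changed sign. They lost the call in 37 of 603 fits under other settings and in 109 of 588 fits with a library left out.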

Other observations

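The unnamed Spo05994 kept a near-constant ratio to Spo05993, the F-box/kelch gene with the adjoining identifier, as FPKM, at 0.419 to 0.533 over leaf and 0.47 to 0.558 over root. Whether the 2 genes share fragments was not tested. The ratio of Spo21973 to the lectin Spo21985, both of 510 bases, was 2.45 to 2.99 over leaf and 0.668 to 1.11 over root. Petal death protein and Spo21625 also have adjoining identifiers, and their log2 differences in root were -1.06 and -0.81. Low N root 2 held 124 of the members among its 200 most abundant genes, against 97 to 105 in the other root libraries.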
